A study of Mus musculus with 16 samples.

Results

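Hsd11b1, Hsd11b2 and Hsd17b11 encode steroid-handling dehydrogenases, and their transcripts were followed in the kidneys of mice that lack the peptide transporter PEPT2 (gene Slc15a2, also written Pept2). The 3 genes were picked out of 9669 with at least 1 probe that names a single gene, and 4 of the 20205 probes belong to them: 2 for Hsd11b1 and 1 each for Hsd11b2 and Hsd17b11. They were picked by their knockout ratios in these same arrays, so those ratios are given as a description with no test. The knockout group was 4 male Pept2-/- mice (K1 to K4 in the labels, mouse 1 to mouse 4 below), aged 88 days give or take 2, on a mixed C57BL/6 and 129Sv background, and the offspring of matings within a Pept2+/- line. They were compared with a single RNA pool that combined the right kidneys of 5 wild-type (Pept2+/+) mice, W1 to W5. Right kidneys were taken from the knockouts as well, between 8 and 10 in the morning. Whole kidney RNA of each knockout was hybridised against the pool on 4 two-colour spotted cDNA arrays, and which channel held the knockout RNA was reversed on 2 of the 4. The 16 arrays therefore stand for 4 animals, and since no wild-type kidney was measured alone, the spread between wild-type animals is missing from every value and any error of the pool is shared by all of them.

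Glucocorticoid action in a tissue depends on local enzymes as well as on hormone in blood. Hsd11b1 encodes a reductase of the endoplasmic reticulum that turns the inert keto form of the hormone back into active glucocorticoid, using NADPH made in that compartment by hexose-6-phosphate dehydrogenase (H6pd). Hsd11b2 encodes the opposing NAD-dependent enzyme, which in the collecting duct inactivates glucocorticoid and so keeps the mineralocorticoid receptor free for aldosterone. Hsd17b11 encodes a short-chain dehydrogenase found on lipid droplets that can oxidise androgen metabolites.

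The promoter sequences of the pair that lay below the pool, Hsd11b1 and Hsd17b11, are shown so that the genes' start regions can be set side by side. Both come from RefSeq on the mouse assembly GRCm38.p6 and cover the 250 bases before the annotated transcription start, on the minus strand, at chr1:193242361-193242610 for Hsd11b1 and chr5:104021797-104022046 for Hsd17b11. Sequence was matched for these 2 of the 3 genes. Capitals mark the CCAAT box and, in Hsd17b11, a TTGCNNAA match, the C/EBP-type letters.
Hsd11b1: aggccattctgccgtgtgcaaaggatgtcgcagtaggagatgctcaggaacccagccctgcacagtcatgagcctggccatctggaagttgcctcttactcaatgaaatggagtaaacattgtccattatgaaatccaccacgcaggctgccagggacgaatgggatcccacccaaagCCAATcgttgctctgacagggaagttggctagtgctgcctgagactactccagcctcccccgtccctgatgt
Hsd17b11: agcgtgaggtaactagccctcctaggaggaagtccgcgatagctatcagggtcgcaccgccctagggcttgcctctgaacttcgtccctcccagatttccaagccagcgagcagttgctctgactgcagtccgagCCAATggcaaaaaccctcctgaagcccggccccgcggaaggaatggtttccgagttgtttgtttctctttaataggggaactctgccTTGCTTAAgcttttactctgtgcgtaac
The CCAAT box began 72 bases before the start in Hsd11b1 and 115 bases before it in Hsd17b11, and 33.8% of 32851 RefSeq mouse promoter windows of the same length hold it on either strand. The TTGCNNAA match of Hsd17b11 began 28 bases before the start, and 9.56% of windows hold one. The letters AGAACA (a part of the glucocorticoid response element, in 16.1% of windows) and TATAAA (12.4%) were searched on both strands and had no match in either window. No matched motif overlapped another. GC content was 54.4% and 54.8%.

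All ratios below are log2 of knockout over wild-type pool, centred on the median of each array. The sources used here do not say which channel is the numerator, and channel 1 over channel 2 was taken as likely because Slc15a2 was then lower in knockout on 16 of 16 arrays, from -3.77 to -1.45 (median -2.43). Slc15a2 stood at -2.17, -2.74, -2.81 and -2.33 in mice 1 to 4, a mean of -2.51 ± 0.31 (SD, n = 4 mice) or 5.71-fold lower (limma, Benjamini-Hochberg adjusted p = 2.17e-05). Arrays carried a value for 10134 (50.2%) to 18400 (91.1%) of the probes, and 6191 genes had a value for each mouse in each orientation. Over those genes the median ratio was -0.0038, the 1st and 99th percentiles were -0.28 and 0.24, and the median standard error was 0.0496. In limma's test against the pool 0.21% of genes passed in either direction at an adjusted p under 0.05, 0.145% lower and 0.0646% higher in knockout. Without adjustment 10% were lower and 6.8% higher at p under 0.05. A ratio carries no expression level, so the kidney label could not be checked from these values. Among the genes tested were 25 proximal tubule and 15 collecting duct markers, but also 5 adrenal and 9 leukocyte markers.

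Hsd11b1 was lower in the knockout kidney than in the pool on every array that measured it. Its first probe read -0.67, -0.57, -0.77 and -0.34 on the 4 arrays of mouse 1 and -0.89, -0.64 and -0.87 on the 3 arrays of mouse 2 that have a value. In mouse 3 it read -0.40, -0.51, -0.25 and -0.47, and in mouse 4 -0.24, -0.83, -0.63 and -0.27. All 15 values lay below 0 with a median of -0.57, and the arrays of mice 1 and 4 overlapped those of every other mouse, while all those of mouse 2 lay below all those of mouse 3. The mouse values, -0.59, -0.76, -0.41 and -0.49, averaged -0.56 ± 0.15 (SD, n = 4 mice; SE 0.076), or 1.48-fold lower. Among all 6191 genes, 3 had a lower mean ratio: Slc15a2, Eaf2 and Malat1. In whole kidney RNA, fewer cells of a type and less RNA per cell cannot be told apart.

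The second Hsd11b1 probe pointed the same way with a smaller ratio. It had values on 11 arrays and lacked an orientation in mouse 3, so it did not enter the tests. It read -0.26, -0.17, -0.09 and -0.37 in mouse 1, -0.34, -0.64 and -0.66 on 3 arrays of mouse 2, -0.53 on 1 array of mouse 3, and -0.03, -0.62 and -0.33 on 3 arrays of mouse 4. All 11 values were negative, and the 3 mice with both orientations gave -0.22, -0.57 and -0.25, a mean of -0.35 ± 0.19 (SD, n = 3), or 1.27-fold lower. On the 10 arrays that carried both probes, the first was the lower on 7, with a median difference of -0.22 (range -0.68 to 0.058) and means of -0.57 and -0.34. The probes share 2 of their 3 sequence accessions. The size of the Hsd11b1 ratio therefore differed between probes by more than its standard error, while the sign did not.

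Hsd17b11 was lower in all 4 knockout mice. Its single probe had a value on all 16 arrays, reading -0.26, -0.82, -0.42 and -0.29 in mouse 1 and 0.26, -0.60, -0.66 and -0.65 in mouse 2. Mouse 3 gave -0.01, -0.32, -0.47 and -0.43, and mouse 4 gave -0.55, -0.83, -0.45 and -0.44. Of the 16 values 15 were negative, with a median of -0.44, and the exception was the first array of mouse 2. The mouse values were -0.45, -0.41, -0.31 and -0.57, a mean of -0.43 ± 0.11 (SD, n = 4; SE 0.054) or 1.35-fold lower, and -0.49 without that array. Only 12 of the 6191 genes had a lower mean ratio, among them Hsd11b1.

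Hsd11b2 lay on the other side of 0 in 3 of the 4 mice. Its probe had values on 12 arrays, arrays 3 and 4 of mice 1 and 2 being blank. It read 0.25 and 0.27 in mouse 1, -0.28 and 0.08 in mouse 2, 0.25, 0.31, 0.25 and 0.21 in mouse 3, and 0.46, 0.77, -0.13 and 0.17 in mouse 4. Thus 10 of 12 arrays were positive (median 0.25), and of the mice with 4 values mouse 3 was the more even across its arrays. The mouse values of 0.26, -0.10, 0.25 and 0.32 averaged 0.18 ± 0.19 (SD, n = 4; SE 0.095), or 1.14-fold higher, and the mean was 0.28 without mouse 2. A higher mean ratio was seen for 167 genes (2.7%), so Hsd11b2 stood less far out among all genes than Hsd11b1 or Hsd17b11.

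**Figure D1:**
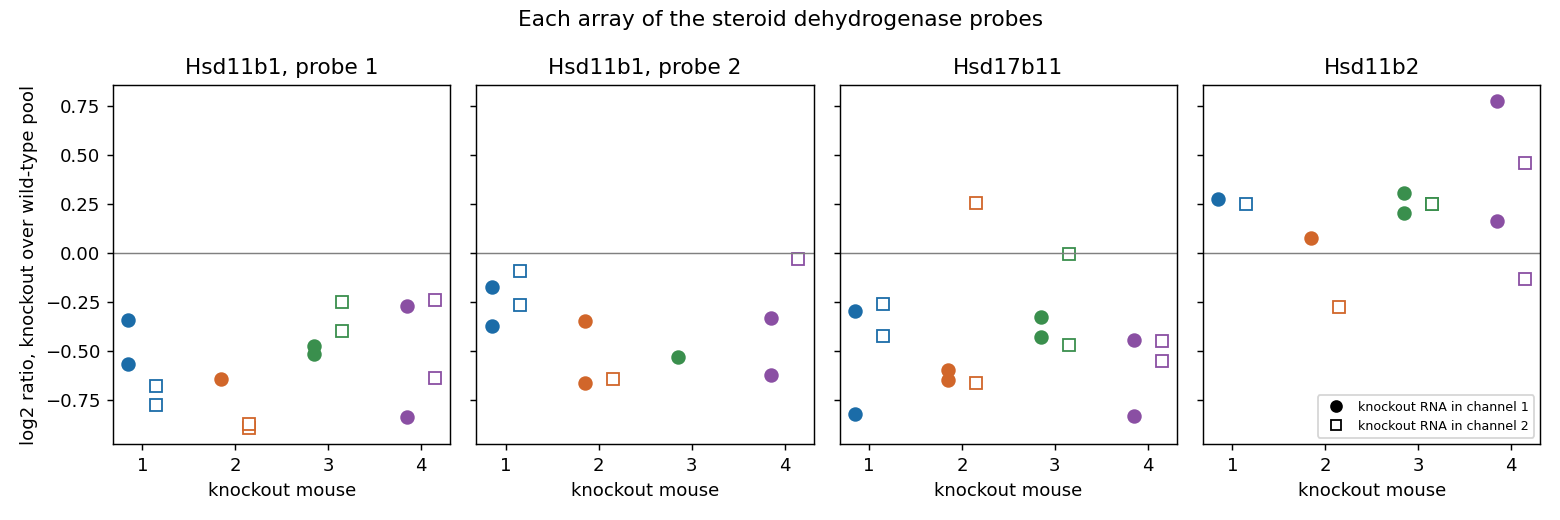
Log2 ratio of knockout over wild-type pool on each array (points, by mouse and by the channel of the knockout RNA) for both Hsd11b1 probes, Hsd17b11 and Hsd11b2. The 15 values of the first Hsd11b1 probe and the 11 of the second lie below 0, 15 of 16 do for Hsd17b11, and 10 of 12 lie above 0 for Hsd11b2.

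The contrast between the enzyme that regenerates glucocorticoid and the one that inactivates it held on each array. Hsd11b1 read below Hsd11b2 on 12 of the 12 arrays that carried both, by -1.61 to -0.44 (median -0.69). Between the mouse values, each over all arrays of its gene, the difference was -0.85, -0.66, -0.66 and -0.81. The mean was -0.75 ± 0.099 (SD, n = 4; SE 0.050), a 1.68-fold lower ratio of Hsd11b1 to Hsd11b2 in knockout than in pool. In mice 1 and 2 the Hsd11b1 value also takes in arrays where Hsd11b2 was blank. On the shared arrays the differences were -0.93 and -0.84 in mouse 1, and -0.62 and -0.72 in mouse 2. The spread of the difference in mouse values (0.099) was smaller than that of either gene alone (0.15 and 0.19). Mouse 2 had the lowest mouse value of both genes, and its difference in mouse values equalled that of mouse 3 to 2 decimals. Because both genes were chosen for ratios on opposite sides of 0, the sign of the difference was fixed by that choice.

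**Figure D2:**
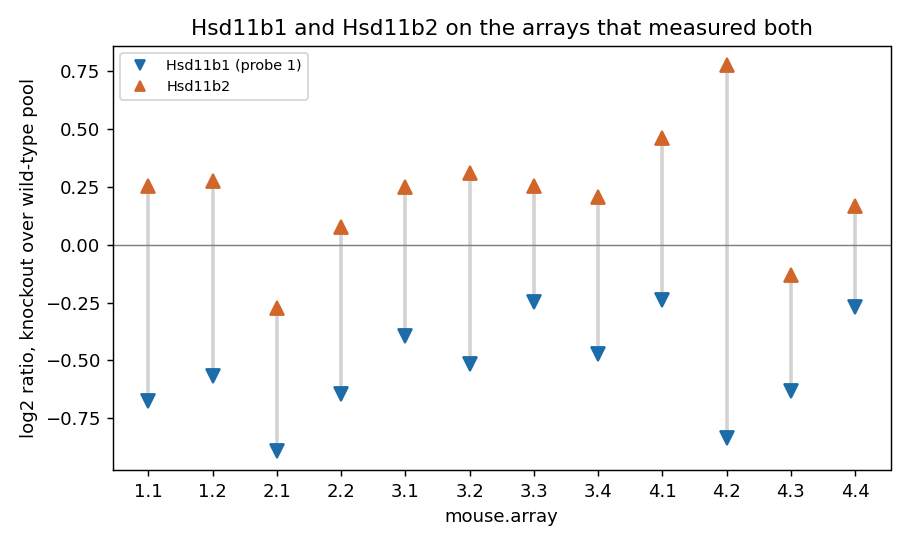
Log2 ratios of Hsd11b1 (first probe) and Hsd11b2 joined for each array that carried both, by mouse. Hsd11b1 is the lower on 12 of 12 arrays. The differences in mouse values, which for Hsd11b1 also use arrays not drawn, run from -0.85 to -0.66.

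Hsd17b11 was also below Hsd11b2, on 11 of 12 arrays (-1.61 to 0.53, median -0.63), with mouse differences of -0.71, -0.31, -0.56 and -0.88 and a mean of -0.62 ± 0.24 (SD, n = 4), or 1.53-fold. Between Hsd11b1 and Hsd17b11 the gap was small: Hsd11b1 was the lower on 11 of 15 arrays. The mouse values differed by -0.14, -0.35, -0.10 and 0.074. That mean of -0.13 was within its spread (SD 0.17, n = 4).

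Differences between the 4 knockout mice do not use the pool contrast on which the genes were picked, although genes that stand out against a pool tend to be those with little spread between mice. In the moderated F test across arrays (limma variance moderation, Benjamini-Hochberg over 6191 genes), which 2.54% of genes passed, none of the 3 genes did. Adjusted p was 0.443 for Hsd11b1, 0.654 for Hsd11b2 and 0.817 for Hsd17b11, and unadjusted p was 0.0785, 0.236 and 0.509. The standard deviation between mice was nevertheless above that of most genes for Hsd11b1 (78.4% of genes had a smaller one) and Hsd11b2 (89.2%), and near the middle for Hsd17b11 (56.4%). A p above the threshold does not show that the mice were alike.

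The orientation of the dyes did not pass for any of the 3 either. Across all genes 0% passed limma's test of the orientation difference after adjustment, and 19.5% had an unadjusted p under 0.05. Arrays with knockout RNA in channel 1 minus those with it in channel 2 gave 0.056 for Hsd11b1 (mice 0.27, 0.24, -0.17 and -0.12; adjusted p = 0.776). Hsd11b2 gave 0.17 (0.022, 0.35, 0.0066 and 0.31; adjusted p = 0.327). For Hsd17b11 the difference was -0.23, negative in 4 of 4 mice (-0.21, -0.42, -0.14 and -0.14; adjusted p = 0.198, unadjusted p = 0.0223). The size of the Hsd17b11 ratio thus ran from -0.55 over the 8 arrays of one orientation to -0.32 over the 8 of the other, negative in both. The Hsd11b1 means were -0.52 over 7 arrays and -0.59 over 8.

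Repeat hybridisations, the mean of arrays 3 and 4 minus that of arrays 1 and 2, could be compared for a pair of the genes. Hsd17b11 differed by -0.086 on average, with mice at 0.18, -0.49, -0.28 and 0.25 and an adjusted p of 0.931 over the 2681 genes with all 16 arrays, of which 0% passed (3.84% had an unadjusted p under 0.05). In Hsd11b1 the repeats of 3 mice differed by 0.064, 0.096 and 0.084 (adjusted p = 0.944 over 4098 genes with 3 or more mice). For Hsd11b2, whose repeat arrays in mice 1 and 2 were blank, no such value could be formed.

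The genes whose array-to-array pattern was most like each of the 3 were ranked by Pearson r over arrays after removing the mean of each dye orientation. The arrays share the pool, and arrays of a mouse share its RNA, so r is a description. Nearest to Hsd11b1 were Prss46 (r = 0.92, 15 arrays), Slc26a2 (0.91, 12 arrays), Vps13d (0.90), Ndufa10 (0.89) and Vps28 (0.88), where the 99th percentile over 5519 genes was 0.74. Their mean ratios ran from 0.054 to 0.13, on the other side of 0 from Hsd11b1. For Hsd11b2 the nearest were Atp4a, Shmt2 and 3000002C10Rik (0.97 each), Agpat3 and Gpd1 (0.96 each) over 12 arrays, where the 99th percentile over 3552 genes was 0.87. Aqp2, the vasopressin-regulated water channel of the collecting duct, reached 0.89 with Hsd11b2 and was looked up because of that shared site. Nearest to Hsd17b11 were Snap47 (0.84), Nrd1 (0.82), Ncl (0.80), Hsd17b10 (0.80), a mitochondrial member of the same family, and Eif2b5 (0.77), where the 99th percentile over 5683 genes was 0.64. Among themselves Hsd11b1 and Hsd11b2 had r = 0.23 (12 arrays), Hsd11b1 and Hsd17b11 0.068 (15 arrays), and Hsd11b2 and Hsd17b11 -0.55 (12 arrays).

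The rest of the hydroxysteroid dehydrogenase family showed no shared shift. Of 24 further family members listed, 15 had a probe and 10 could be tested, and 0 passed limma's adjusted test against the pool. At an unadjusted p under 0.05, where 6.8% of all genes were higher and 10% lower, 2 of the 10 were higher and 1 lower. Their median ratio was 0.00013, with 5 positive and 5 negative, against -0.0038 over all genes. Hsd17b2, which oxidises oestradiol and testosterone to less active forms, had the smallest p, at -0.16 (SE 0.02, n = 4; mice -0.11, -0.17, -0.16 and -0.21; limma adjusted p = 0.17). It was below 0 in 4 of 4 mice, as Hsd11b1 and Hsd17b11 were, which 14.3% of all genes were.

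Within that family Hsd3b2, one of the closely related Hsd3b genes that spotted cDNA may not tell apart, varied between mice. It stood at -0.08, 0.59, 0.11 and 0.58 (mean 0.30, SE 0.17), and passed the F test between mice (limma adjusted p = 0.0107; 0.173 without mouse 1). Its relatives Hsd3b4 and Hsd3b3 were at -0.02 and 0.02. Hsd17b12, of fatty acid elongation, was at -0.05, the peroxisomal Hsd17b4 at 0.03, Hsd17b3, which makes testosterone in testis, at -0.01, and Hsd17b10 at 0.01. Dhrs7, a dehydrogenase of the endoplasmic reticulum, was at 0.12, and Hsdl1 at -0.01. The other 5 were too sparsely measured to test: Hsd3b1 (median -0.097 over 8 arrays), Hsd3b7 (-0.23 over 6), Hsd17b6 (0.023 over 8), Dhrs7b (-0.073 over 5) and Dhrs7c (0.054 over 12). Every family member tested lay nearer to 0 than Hsd11b1 and Hsd17b11, which was likely from the start because those genes were picked for their ratios.

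**Figure D3:**
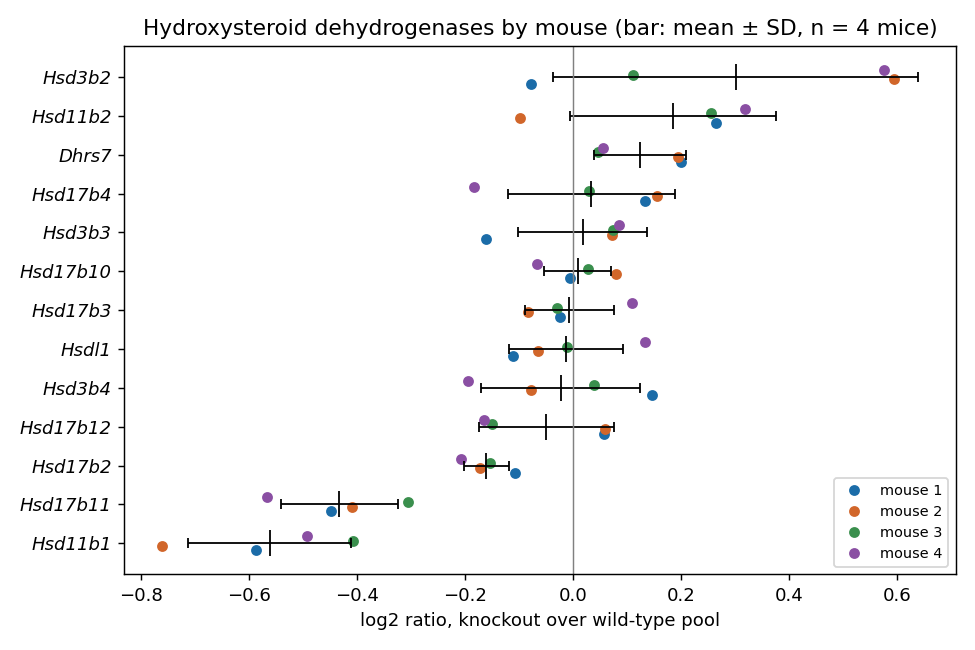
Log2 ratio of knockout over pool in each of the 4 mice (points) with the mean for Hsd11b1, Hsd17b11, Hsd11b2 and the 10 other hydroxysteroid dehydrogenases tested. Hsd11b1 and Hsd17b11 have means of -0.56 and -0.43, the others lie between -0.16 and 0.30, and Hsd3b2 is spread from -0.08 to 0.59.

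The supply of NADPH on which the Hsd11b1 reductase depends did not pass as a group of single genes. Of 10 listed genes 6 were tested, 0 passed the adjusted test, 1 was higher and 2 were lower at an unadjusted p under 0.05, and the median was -0.0092. Over all genes 6.8% were higher and 10% lower at that unadjusted p. H6pd, the enzyme coupled to HSD11B1, stood at -0.25, -0.16, -0.14 and -0.06 in mice 1 to 4, a mean of -0.15 (SE 0.04; limma adjusted p = 0.186, unadjusted 0.0126). Slc37a4, which carries glucose-6-phosphate into the endoplasmic reticulum, was at -0.13, and its relative Slc37a2 at -0.08. Pgd and Pgls of the cytosolic pentose phosphate pathway were at 0.15 and 0.07, and the phosphatase G6pc3 at 0.06. H6pd thus lay below 0 in 4 of 4 mice, as did 14.3% of all genes, and fell short of the threshold. Its difference between dye orientations, 0.25 (limma adjusted p = 0.19), was larger in size than its mean ratio.

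Other steroid-metabolising enzymes went both ways. Of 28 listed, 10 had a probe and 6 were tested, with 0 past the adjusted test, 1 higher and 2 lower without adjustment, and a median of 0.060. Without adjustment 6.8% of all genes were higher and 10% lower. Cyp7b1, a hydroxylase of oxysterols and androgen precursors, had the smallest p at -0.32 (limma adjusted p = 0.098), and was below 0 in 4 of 4 mice (-0.25, -0.19, -0.41 and -0.44). Ugt2b38, a glucuronosyltransferase, was at -0.23, Srd5a3 at 0.14 and the sulfotransferase Sult2b1 at 0.08.

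Glucocorticoid signalling was read through the receptor, its chaperones and responsive genes. Nr3c1, the glucocorticoid receptor that the product of Hsd11b1 activates, was at -0.08 (mice -0.01, 0.02, -0.06 and -0.26). Of 24 receptors and chaperones 15 were tested, 0 passed the adjusted test and 3 were lower without adjustment, with a median of -0.054. Without adjustment 10% of all genes were lower. Fkbp5, a co-chaperone that glucocorticoid induces, stood at -0.28, 0.04, -0.23 and -0.15 (mean -0.16; limma adjusted p = 0.25, unadjusted 0.0276), and its relative Fkbp4 at 0.08. Hspa8, a heat shock cognate chaperone, was at 0.02, -0.14, -0.53 and -0.79 and passed the F test between mice (adjusted p = 0.00177), as did Dnajb1 (0.00383, but 0.281 without mouse 1 and 0.0863 without mouse 3). The mice in which Hspa8 was lowest, mice 3 and 4, were those with Hsd11b1 nearest to 0.

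Of 45 glucocorticoid-responsive genes 26 were tested and 0 passed the adjusted test against the pool. At an unadjusted p under 0.05, 1 was higher and 6 lower, where 6.8% and 10% of all genes were. Their median was -0.030, with 9 positive and 17 negative, against 51.8% negative over all genes. Ccn2, a matricellular growth factor, was at -0.30 (mice -0.15, -0.06, -0.46 and -0.54), Gadd45g, of the DNA damage response, at -0.41 (0.02, -0.30, -0.88 and -0.48), the cell cycle inhibitor Cdkn1a at -0.16 and the phosphatidate phosphatase Lpin1 at 0.14. None of those 4 had a limma adjusted p under 0.05 against the pool. Between mice, 5 of the 26 passed the F test (Ccn2, Gadd45g, Rhob, Errfi1 and Txnip), as did 2.54% of all genes. Rhob and Txnip passed with any one mouse left out. Hsd11b1 did not pass between mice, although 78.4% of genes had a smaller SD between mice, and the difference in spread was not itself tested.

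Hsd11b2 guards the aldosterone-responsive part of the nephron, so genes of that segment were set beside it. Over all genes 51.8% of ratios were negative, and without adjustment 6.8% were higher and 10% lower. Of 27 genes of aldosterone-regulated sodium handling 15 were tested, 0 passed the adjusted test, 2 were higher and 1 lower without adjustment, and the median was 0.055 with 10 positive. With knockout RNA in channel 1 the median was 0.072 with 10 positive, and in channel 2 it was -0.0055 with 7 positive. Sfn was at 0.22 (limma adjusted p = 0.12), the kinase Wnk4, which controls sodium chloride transport, at 0.12, the ubiquitin ligase Nedd4 at -0.12 and the sodium pump subunit Atp1b1 at -0.10. Of the 33 collecting duct markers 15 were tested and 0 passed, 1 was higher without adjustment, and 13 of the 15 ratios were positive, with a median of 0.052. That count and median depended on dye orientation: 12 were positive with a median of 0.094 on arrays with knockout RNA in channel 1, and 8 with a median of 0.0018 on those with it in channel 2. Aqp2 stood at 0.13, 0.21, 0.28 and 0.46 (mean 0.27, SE 0.07; limma adjusted p = 0.14). Its difference between dye orientations, 0.39 (limma adjusted p = 0.16), was larger than that mean. Rhbg and Rhcg, ammonia transporters of the same segment, were at 0.16 and 0.09, and the proton pump subunit Atp6v1g3 at -0.12.

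The collecting duct median by mouse was 0.042, 0.068, 0.086 and -0.0045, while Hsd11b2 was at 0.26, -0.10, 0.25 and 0.32. Mouse 2, the one with a negative Hsd11b2 ratio, thus had the second highest marker median, and mouse 4, with the highest Hsd11b2, the lowest. Foxi1, Krt18 and Car2 of that list passed the F test between mice, as did 2.54% of all genes. Of these Foxi1 kept its adjusted p under 0.05 with any one mouse left out. The part of collecting duct content in the Hsd11b2 ratio was not tested.

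Proximal tubule markers, the segment that carries much of the kidney's steroid metabolism, went both ways beside the lower Hsd11b1. Of 39 listed, 25 were tested, 2 were higher after adjustment, 5 were higher and 5 lower without it, and the median was -0.017. Over all genes 0.0646% were higher after adjustment, and 6.8% were higher and 10% lower without it. The list was drawn up with earlier results of these arrays known. The pair that passed were Slc22a8, an organic anion transporter, at 0.48 (limma adjusted p = 0.0149; 0.0578 without mouse 1 and 0.132 without mouse 4) and Slc7a7, a basolateral amino acid exchanger, at 0.37 (adjusted p = 0.0272; 0.0529 to 0.179 with a mouse left out). The brush border protease Mep1b was at -0.26. By mouse the proximal median was 0.00057, -0.030, 0.064 and -0.071, on both sides of 0. The part of proximal tubule content in the Hsd11b1 ratio was not tested.

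The androgen-responsive kidney genes tested all had a mean ratio below 0. Of 26 listed, 10 were tested and 10 of 10 ratios were negative, with a median of -0.23, 1 lower after adjustment and 8 lower without it. Over all genes 51.8% were negative, 0.145% lower after adjustment and 10% lower without it. Azgp1 was not below 0 in every mouse (-0.57, -0.60, 0.52 and 0.09). Kap was at -0.10, with a difference of -0.53 between dye orientations. By mouse the median was -0.23, -0.22, -0.25 and -0.19. Odc1, of polyamine synthesis, was at -0.77, -0.58, -0.56 and -0.28 (mean -0.55, SE 0.10; limma adjusted p = 0.0304), and its adjusted p was 0.0829 without mouse 1, 0.0821 without mouse 2, 0.0529 without mouse 3 and 0.0275 without mouse 4. Cyp7b1 also counts in this list, and Cndp2, a dipeptidase, and Adh1, an alcohol dehydrogenase, were each at -0.27. Earlier results of these arrays were known when the list was drawn up, so its direction is no independent evidence. Odc1 and Hsd11b1 were both lower in 4 of 4 mice, and over 13 shared arrays their r was -0.28.

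Hsd17b11 sits on lipid droplets, whose other proteins did not move one way. Of 35 listed, 14 were tested, 0 passed the adjusted test, 3 were higher and 3 lower without it, and the median was -0.042. Over all genes 6.8% were higher and 10% lower without adjustment. Mgll, which cleaves monoacylglycerol, was at 0.18 (limma adjusted p = 0.15), hormone-sensitive lipase Lipe at 0.16 and Fitm1, of droplet formation, at 0.17. Cct5, a chaperonin subunit that was counted in the list, was at -0.13. Plin2, the main droplet coat protein, was at -0.34, 0.28, -0.73 and -0.70 and passed the F test between mice (limma adjusted p = 3.28e-06, and 0.0908 without mouse 2), as did Rab18 (0.0262, and 0.117 to 0.123 without mouse 1, 2 or 3). Hsd17b11, by comparison, ranged only from -0.57 to -0.31 across the same mice.

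PPAR-alpha-responsive genes, many of them of fatty acid oxidation, also split. Of 42 listed, 18 were tested and 0 passed, with 3 higher and 2 lower without adjustment and a median of -0.050. Over all genes 6.8% were higher and 10% lower without adjustment. Acot3, an acyl-CoA thioesterase, was at 0.26, Acaa1a and Cpt2 of fatty acid oxidation at 0.23 and 0.19, and the dehydrogenase Acadm at -0.18. The omega-hydroxylase gene Cyp4a14 read 1.56, 0.95, -0.34 and 0.01 and differed between mice (limma adjusted p = 9.72e-06), without a matching order in Hsd17b11.

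**Figure D4:**
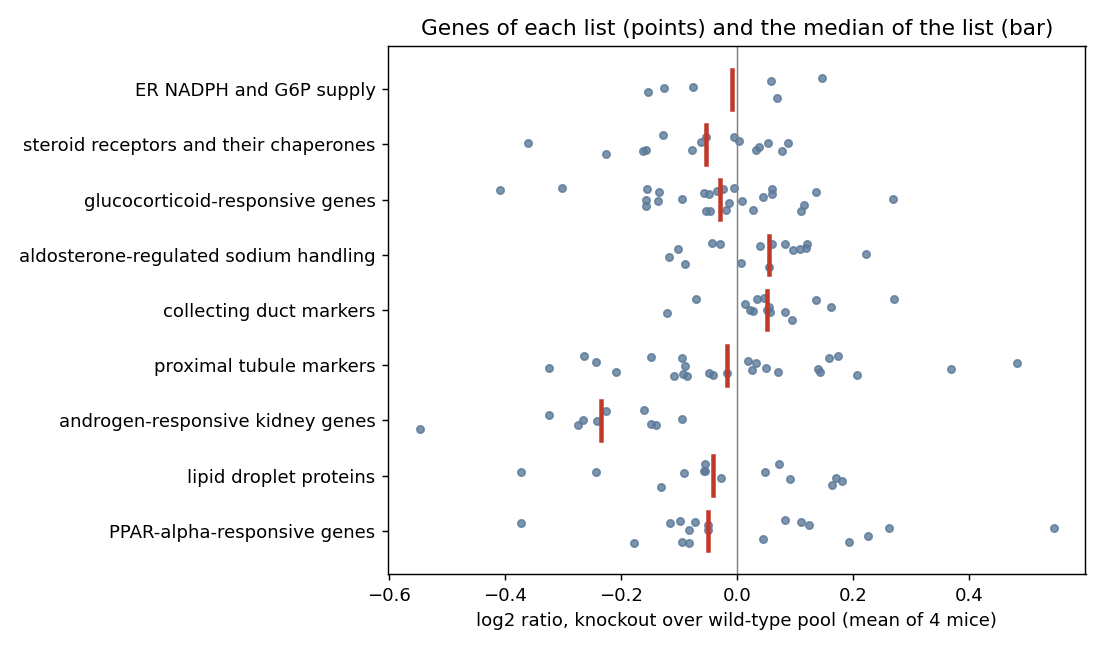
Log2 ratio of each tested gene (points) and the median (bar) of each gene list drawn. Androgen-responsive genes have a median of -0.23 and collecting duct markers of 0.052. Hsd11b1 (-0.56), Hsd17b11 (-0.43) and Hsd11b2 (0.18) are not drawn.

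Markers of other cell types that a kidney sample can hold were read the same way. Adrenal tissue lies against the kidney and holds steroid enzymes: of 20 adrenal markers 5 were tested, with ratios from 0.0065 to 0.035, and 0 were higher or lower in limma with or without adjustment. Adipose markers, from a tissue rich in Hsd11b1, had a median of 0.046 over 6 tested genes, with Lpl at -0.23. Over 9 tested genes of fibroblasts and smooth muscle the median was -0.049, with Col3a1 at -0.32. Without adjustment 3 of the 9 were lower, as were 10% of all genes. Endothelial markers stood at -0.072 over 7 genes, leukocyte markers at 0.0073 over 9, loop and distal tubule markers at -0.091 over 3, podocyte markers at -0.12 over 2 and erythroid markers at 0.053 over 2. These medians cannot be set against Hsd11b1 or Hsd17b11, which were picked for their ratios. The part of these cell types in the ratios was not tested.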

How the data were processed

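Per the labels' protocols, the authors labelled cDNA with Cy3 or Cy5, scanned the slides on a GenePix 4000A, subtracted background and scaled each array to a median ratio of 1. Each value the authors deposited is a log2 ratio between channels; the base was worked out from the spacing of the values, and the dye of each channel, the numerator and the rule behind blank cells are not given in the sources used here. Values were centred on the array median and turned to knockout over pool. A mouse was the mean of its orientation means, a gene the mean of its single-gene probes, and the tests took the 10804 probes measured in both orientations of all mice. Hsd11b1 rests on its first probe. Tests were two-sided in limma 3.58.1 (R 4.3.3) with Benjamini-Hochberg adjustment over all genes tested and a threshold of 0.05. Arrays of a mouse are technical, so the F test compares these animals. The 3 genes and all lists were chosen with earlier results of these data known. Genes were named as the whole dehydrogenase and NADPH lists, Nr3c1, Fkbp4 and Fkbp5, up to 4 of each other list by smallest p, and the 5 most alike by r; genes that differed between mice and those of the array checks were named after their values were seen. Scripts were tested on simulated data. Alternatives left out mice, arrays or orientations and changed centring, filters, probes and blocks.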

Additional observations from a re-analysis of the deposited data

Results flagged for a closer look

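In a group of 4 values, Dixon's criterion of 0.829 marks a value that stands apart, and chance marks about 1 in 20 of the 116 groups looked at. It marked Hsd11b2 in mouse 2 (-0.099, the others 0.25 to 0.32) and Hsd17b11 on array 1 of mouse 2 (0.26, the others of that mouse -0.66 to -0.60). It also marked Hsd3b3 in mouse 1 (-0.16, the others 0.071 to 0.085) and Adh1 in mouse 3 (-0.13, the others -0.33 to -0.32).

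Some of the 107 named genes differed between the 4 knockout mice (limma F test, adjusted p under 0.05), which Hsd11b1, Hsd11b2 and Hsd17b11 did not. With any one mouse left out, adjusted p stayed under 0.05 for Hspa8 (0.00177), Cyp4a14 (9.72e-06), Rhob (8.21e-05), Txnip (2.95e-06), Azgp1 (6.38e-05, an androgen-responsive gene) and Foxi1 (0.00074). Without mouse 1 the call was lost for Hsd3b2 (0.0107, then 0.173), Gadd45g (0.0349, then 0.288) and Dnajb1 (0.00383, then 0.281). Gadd45g and Dnajb1 lost it without mouse 3 too (0.388 and 0.0863). Without mouse 2 it was lost for Plin2 (3.28e-06, then 0.0908), Umod (0.0125, then 0.22) and Errfi1 (0.0165, then 0.141, and 0.684 without mouse 1). Umod, of the thick ascending limb, lost it also without mouse 3 (0.0513), as did Car3, an adipose marker (0.00142, then 0.0604). Ccn2 (0.00911) lost it without mouse 1, 2 or 4 (0.0545, 0.13 and 0.0717). Rab18 (0.0262), Krt18 (0.0308) and Car2 (0.0407) lost it without mouse 1, 2 or 3 (0.117 to 0.123, 0.0765 to 0.839, and 0.128 to 0.203).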

How the results depend on the processing

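Hsd11b1, Hsd11b2 and Hsd17b11 were picked by their ratios and the alternatives reuse the same arrays, so a kept sign was likely from the start. Their ratios kept their sign in all 42 alternatives, with ranges of -0.61 to -0.35 for Hsd11b1, 0.098 to 0.28 for Hsd11b2 and -0.55 to -0.32 for Hsd17b11. Of the 42 ratios 39 moved by less than 1 SD between mice. Those that moved more were Hsd17b11 with knockout RNA in channel 1 only (-0.55) or channel 2 only (-0.32) and Hsd11b1 by its second probe alone (-0.35). With a mouse left out, the dye difference of Hsd11b1 ran from -0.016 (without mouse 1; -0.0049 without mouse 2) to 0.13, and the repeat difference of Hsd17b11 from -0.20 to 0.048 (without mouse 2). In 24 alternatives the adjusted p of the 3 genes between mice stayed at 0.227 to 0.987. The count of genes past the threshold against the pool was 13, and it was 3 without mouse 1, 3 without mouse 2, 10 without mouse 3 and 5 without mouse 4. It was 8 in channel 1 only, 3 in channel 2 only, 4 on arrays 1 and 2 (4305 genes tested), 8 on arrays 3 and 4 (3576), 40 with probes on all 16 arrays (2681), 5 with values in at least 3 mice (7915), and 467 (166 higher, 301 lower) with 16 arrays and the mouse as a random block. The 157 genes that differed between mice became 45 to 135 with a mouse left out (45, 75, 58 and 135 without mice 1 to 4) and 88 without array 3 of mouse 3 and array 1 of mouse 4, which correlated at 0.62. With the array number as a replicate block the count was 130, of which 123 were among the 157. Gadd45g (adjusted p = 0.0529) and Krt18 (0.0654) were then no longer called. Of the 16 arrays, 6 correlated best with their own number. That number also fixes the dye orientation: arrays 1 and 3 held knockout RNA in channel 2, and arrays 2 and 4 in channel 1. Array pairs within a mouse correlated weakly: median r was 0.25 with matching channels (highest 0.53) and 0.11 with reversed channels (highest 0.25). Between mice the medians were 0.17 with matching and 0.035 with reversed channels. The 0.62 pair came from different mice and lay above every pair within a mouse. The count that differed by dye was 0 and became 104 with probes on all 16 arrays. That between repeats was 0 and ran from 0 to 1 with a mouse left out (1 without mouse 3). The cause of these changes was not tested, except that some settings test fewer genes or samples. The median turned negative in 3 of 15 alternatives for the aldosterone list and in 7 for the other hydroxysteroid dehydrogenases, and positive in 2 for lipid droplet proteins. Settings without array 3 of mouse 3 and array 1 of mouse 4, without array 1 of mouse 2, and the 3-mouse and leave-out settings of the repeat and dye tests were chosen after seeing the data. No value could be formed for Hsd11b1 and Hsd11b2 on arrays 3 and 4 only or with all 16 arrays required. Without intensities, how far each spot stood above background is unknown, which limits every ratio, as does the number of mice.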
